A study of Mus musculus with 6 samples.

Results

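The genes described here are 39 genes of protein folding and quality control in the endoplasmic reticulum (ER), taken by symbol from the 54446 genes listed for the livers of 3 wild-type (WT) and 3 *Fmo5*-/- mice. They comprise 11 luminal chaperones and co-chaperones, 9 enzymes of disulfide bond formation, the translocon-associated protein SERP1, 13 components of ER-associated degradation (ERAD) and 5 sensors or transcription factors of the unfolded protein response (UPR). All mice were males of 32 weeks, labelled C57BL/6 and given as C57BL/6J in the study's methods, and were fed standard chow. Apart from animal numbers, their labels differed in a single respect, disruption of *Fmo5*, which encodes flavin-containing monooxygenase 5, an ER membrane enzyme. WT mice carried the intact gene and received no treatment. The knockout was not restricted to hepatocytes, so that a difference in liver cannot be assigned to the cells in which it arose. RNA was from whole liver, and in such bulk samples fewer cells of a type and less RNA per cell cannot be told apart.

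Secretory and membrane proteins fold in the ER with the help of BiP, GRP94, lectin chaperones and protein disulfide-isomerases, and those that fail are pulled back to the cytosol by ERAD and degraded by the proteasome. When unfolded proteins accumulate, the membrane sensors IRE1, ATF6 and PERK are activated. IRE1 splices *Xbp1* mRNA and ATF6 is cleaved to a nuclear factor, and both products bind promoter elements termed ER stress response elements (ERSE) and raise transcription of chaperone and ERAD genes, whereas PERK slows translation and acts through ATF4. Hepatocytes, which secrete most plasma proteins, have a large ER and express this machinery at high levels.

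Each library held 44886286 to 52338675 counts on genes, 66.2% to 69.2% of the reads listed for it. *Fmo5* mRNA itself was 35818 ± 4978 normalized counts (SD, n = 3) in WT liver and 1122 ± 63.7 in *Fmo5*-/- liver, a log2 fold change of -5.00, and each library matched its label. The share of reads mapping to several places was 11.8% to 13.1% in WT and 10.4% to 11.5% in *Fmo5*-/- libraries, and the unmapped share was 9.72% to 10.1% and 9.10% to 9.20%. Both shares were lower in every *Fmo5*-/- library. Reads in bases of several genes were 3.52% to 3.62% in WT and 3.72% to 3.98% in *Fmo5*-/- libraries, also without overlap, and reads in no gene were 6.86% to 7.02% in WT, 6.96% in *Fmo5*-/- mouse 1, 8.63% in mouse 2 and 8.28% in mouse 3. The part of these shares in the results was not tested.

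Of the 39 genes, 34 have an entry in the RefSeq promoter table, which holds 250 bases before and 50 after a transcription start (build GRCm38.p6). *Hyou1*, *Manf*, *Derl1*, *Erlec1* and *Atf6* have no entry. The promoter of *Hspa5*, the gene of BiP, is shown whole because it carries an ERSE and its mRNA had the smallest adjusted p of the 39. Capitals mark the ends of the element, CCAAT and CCACG, held 9 bases apart.

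Hspa5 promoter, chr2:34771840-34772139, plus strand: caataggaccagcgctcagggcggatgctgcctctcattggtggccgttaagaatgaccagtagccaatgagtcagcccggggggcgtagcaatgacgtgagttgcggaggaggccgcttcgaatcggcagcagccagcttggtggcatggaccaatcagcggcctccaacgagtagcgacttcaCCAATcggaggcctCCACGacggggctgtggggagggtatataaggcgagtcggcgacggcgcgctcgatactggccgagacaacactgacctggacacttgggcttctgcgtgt

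The ERSE (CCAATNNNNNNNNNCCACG) was searched on both strands, together with ERSE-II, in which ATTGG and CCACG stand 1 base apart, and the UPR element (UPRE) TGACGTGG. An ERSE was found in 0.119% of 32851 promoters in the table, an ERSE-II in 0.0365% and a UPRE in 0.676%. Counted by gene, these shares were 0.137%, 0.0444% and 0.714% of 27025 genes. Among the 34 genes with an entry, 8 held an ERSE, 2 held an ERSE-II and 3 (*Txndc5*, *Txndc11* and *Vcp*) held a UPRE. *Txndc5* and *Txndc11* also have listed promoters without a UPRE. No promoter of the 34 genes was counted under both an ERSE and a UPRE. A match describes letters in this window and shows neither binding nor use of a site. The windows below, read in the direction of the gene with 20 bases either side of the element, show how the element recurs, its 2 ends in capitals and the bases between them free. On the opposite strand the ERSE reads CGTGG to ATTGG, as in *Creld2*, *Ero1lb* and *Derl3*.

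Hsp90b1, ERSE, chr10:86705618-86705676, minus strand: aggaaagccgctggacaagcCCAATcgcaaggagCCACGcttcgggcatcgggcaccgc
Hsp90b1, ERSE, chr10:86705513-86705571, minus strand: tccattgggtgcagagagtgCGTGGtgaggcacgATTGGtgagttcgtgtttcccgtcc
Dnajb11, ERSE-II, chr16:22857832-22857882, plus strand: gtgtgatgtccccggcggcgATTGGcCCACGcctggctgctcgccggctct
Dnajc3, ERSE, chr14:118937807-118937865, plus strand: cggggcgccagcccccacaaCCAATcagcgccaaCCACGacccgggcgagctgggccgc
Creld2, ERSE, chr15:88819500-88819558, plus strand: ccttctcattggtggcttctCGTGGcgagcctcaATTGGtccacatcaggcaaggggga
Pdia6, ERSE, chr12:17266471-17266529, plus strand: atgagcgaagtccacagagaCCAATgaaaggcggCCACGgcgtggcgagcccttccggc
Ero1lb, ERSE, chr13:12565662-12565720, plus strand: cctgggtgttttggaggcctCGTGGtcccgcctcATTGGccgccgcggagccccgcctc
Herpud1, ERSE-II, chr8:94386357-94386407, plus strand: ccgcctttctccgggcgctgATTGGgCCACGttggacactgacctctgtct
Syvn1, ERSE, chr19:6046512-6046570, plus strand: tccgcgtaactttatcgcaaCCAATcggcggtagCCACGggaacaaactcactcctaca
Derl3, ERSE, chr10:75893222-75893280, plus strand: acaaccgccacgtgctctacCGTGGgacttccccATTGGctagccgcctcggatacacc

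In *Hsp90b1*, the gene of GRP94, 2 such elements lie 212 and 107 bases before the start, in opposite orientation. The element begins 65 bases before the start in *Hspa5*, 105 in *Dnajc3*, 98 in *Pdia6*, 44 in *Syvn1*, 126 in *Creld2*, 201 in *Ero1lb* and 156 in *Derl3*. The ERSE-II begins 52 bases before the start of *Herpud1* and at base 8 of the *Dnajb11* transcript.

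The comparison asked whether mRNAs of the ER folding and degradation machinery differed between *Fmo5*-/- and WT livers. In *Fmo5*-/- liver 4 luminal chaperones, 2 enzymes of disulfide bond formation, *Serp1* and 1 ERAD gene were called lower, and the mRNAs of the sensors overlapped between the genotypes. To be called, a gene needed normalized counts that averaged at least 500 across the 6 libraries and, in edgeR's quasi-likelihood test, an adjusted p under 0.05. By this rule 8 of the 39 genes were called lower (*Hspa5*, *Hyou1*, *Dnajb11*, *Manf*, *Pdia4*, *Ero1lb*, *Serp1* and *Sel1l*) and 0 higher, whereas 1.06% of the 7819 genes at this level were called lower and 0.550% higher. Without adjustment, 26 genes were lower and 1, *Txndc11*, was higher at p under 0.05 in edgeR, all 27 with a mean of 500 or more. The same held for 17.6% (lower) and 7.62% (higher) of genes at this level. With DESeq2, which was the tool of the study, 19 of the 39 were called lower and 0 higher, against 6.77% called lower and 2.77% called higher of 7796 genes. Without the filter on low counts edgeR called 21 of the 39 lower, against 704 of all 7820 genes with a mean of 500 or more. These were the 8 named above together with *Hsp90b1*, *Dnajb9*, *Dnajc3*, *Creld2*, *Pdia3*, *Pdia6*, *P4hb*, *Txndc5*, *Herpud1*, *Syvn1*, *Edem3*, *Derl2* and *Ubxn4*. In the fit without the filter, adjusted p could fall although a gene varied widely between mice. *Herpud1*, with a coefficient of variation of 26.5% in WT mice, went from an edgeR adjusted p of 0.0975 to 1.61e-08. *Derl1*, at 0.397%, went from 0.257 to 0.517. Values from that fit are given as a setting and not as further evidence for a gene. In what follows, a call by edgeR or its absence refers to the fit with the filter, unless another setting is named. All 39 genes passed the filter on low counts, and 37 had a mean of 500 or more, the exceptions being *Ero1l* and *Derl3*.

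Of these 37 genes, 34 had the lower mean in *Fmo5*-/- liver (background 64.0%). For 26 of the 37, every *Fmo5*-/- mouse was below every WT mouse, compared with 21.9% of genes at this level. The reverse separation was seen for none of the 39, with a background of 9.39%. The median log2 fold change was -0.36 over the 37 genes and -0.06 over all genes with a mean of 500 or more. Calls over all genes and over these 39 both changed when a mouse was left out. The number of the 39 called lower was 2 without WT mouse 1, 3 without WT mouse 2 and 0 without *Fmo5*-/- mouse 1, the smallest edgeR adjusted p then being 0.0600. Over all genes with a mean of 500 or more, 83 were called lower in the full set, and 20, 26 and 7 without these mice.

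The scaling also mattered. Values here are scaled to effective library sizes (library totals adjusted by TMM factors). Scaled to library totals alone, an alternative chosen after the data had been seen, the median log2 fold change of genes with a mean of 500 or more was 0.05 in place of -0.06, and 45 genes were called lower and 178 higher in place of 83 and 43. Of the 39 genes 6 were then called lower, with *Dnajb11* and *Manf* lost, their median log2 fold change was -0.24, and 15 did not overlap in place of 27. Of all genes at that level, 657 of 7820 then lay lower without overlap. A planned setting, in which a mean of 500 was required before scaling and fit, also moved the values. Its median log2 fold change was 0.0016 over all genes at that level and -0.29 over the 37 of the 39 genes that it tested. Of these 37, 32 had the lower mean and 22 were lower without overlap, against 3882 and 1132 of 7816 genes.

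**Figure D1:**
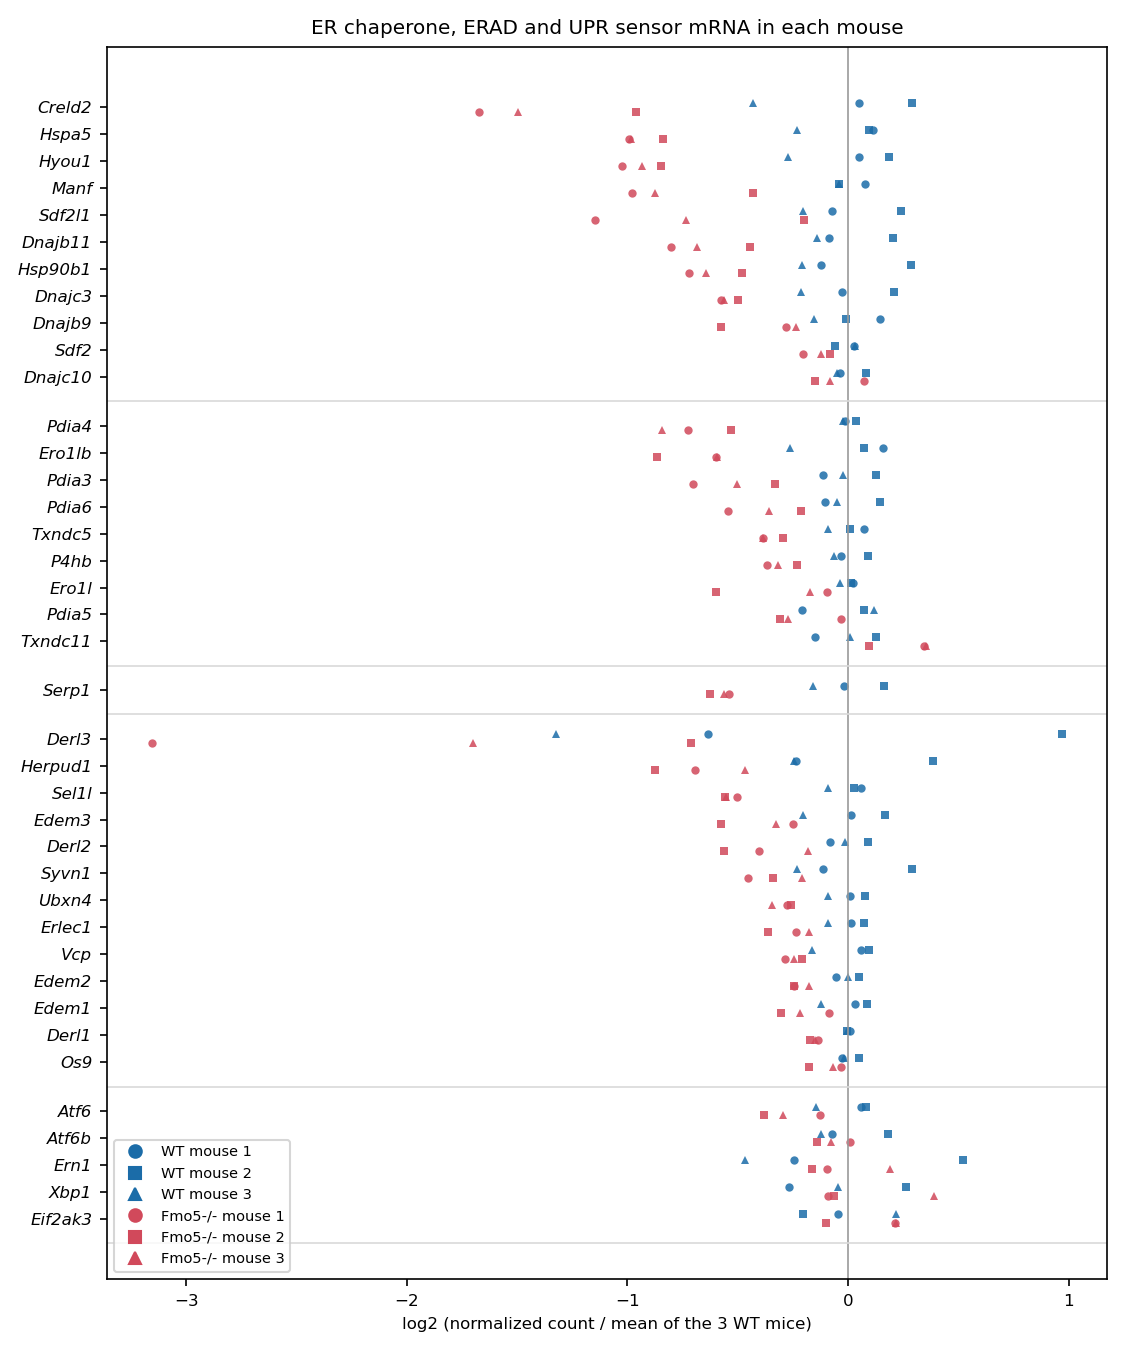
Normalized count of each of the 39 genes in each mouse, as log2 of its ratio to the mean of the 3 WT mice; blue symbols are WT, red symbols *Fmo5*-/- mice, and grey lines part the role groups. Red symbols lie left of blue ones for 27 genes, most widely among the chaperones at the top, while the 5 sensors and transcription factors at the bottom overlap.

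Of the role groups with more than 1 gene, the luminal chaperones had the lowest median log2 fold change, -0.64. All 11 had a lower mean in *Fmo5*-/- liver (with library totals all but *Dnajc10*), 4 were called by edgeR and 8 by DESeq2, and 9 did not overlap between genotypes. Over all genes with a mean of 500 or more, 64.0% had a lower mean and 21.9% were lower without overlap. Called lower were 1.06% of them by edgeR and 6.77% by DESeq2. *Hspa5* encodes BiP, the HSP70 of the ER lumen that also holds the UPR sensors inactive (chr2:34771970-34777547, GRCm38, GENCODE M21). Its normalized counts were 65310, 64405 and 51425 in WT mice and 30378, 33711 and 30482 in *Fmo5*-/- mice. The lowest WT mouse was thus well above the highest *Fmo5*-/- mouse. The log2 fold change was -0.94 (SE 0.12, edgeR adjusted p = 0.00977), a fall of 47.8% in the mean. *Hyou1* encodes GRP170, a large HSP70 relative that acts as a nucleotide exchange factor for BiP (chr9:44379490-44392369). Its counts were 12305, 13538 and 9850 in WT and 5853.9, 6599.5 and 6224.3 in *Fmo5*-/- mice, again without overlap. The log2 fold change was -0.93 (SE 0.12, edgeR adjusted p = 0.0128). Both genes were called in 5 of the 6 fits that left out 1 mouse, and were lost without *Fmo5*-/- mouse 1.

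*Dnajb11* encodes ERdj3, a J-domain co-chaperone of BiP (chr16:22857845-22879634). Its counts were 5730.4, 7005.5 and 5530.4 in WT and 3489.6, 4472.8 and 3792.5 in *Fmo5*-/- mice, a log2 fold change of -0.64 (edgeR adjusted p = 0.0468). This was the call nearest the threshold and was kept in 1 of the 6 fits with a mouse left out. *Manf* encodes a secreted and ER-resident factor that binds BiP (chr9:106838312-106891979). Its counts were 5800, 5360 and 5359 in WT and 2792, 4087 and 3004 in *Fmo5*-/- mice, with a log2 fold change of -0.74 (edgeR adjusted p = 0.0459). The 3 WT values were close together, whereas *Fmo5*-/- mouse 2 stood above the other two. *Manf* was called in 2 of the 6 such fits, those without *Fmo5*-/- mouse 2 or 3.

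*Creld2*, an ER stress-inducible gene of a disulfide-isomerase-like protein, had the largest difference among the chaperones but a wide spread. Its counts were 3693, 4369 and 2648 in WT and 1119, 1832 and 1264 in *Fmo5*-/- mice. The groups did not overlap and the log2 fold change was -1.35 (SE 0.24), yet the edgeR adjusted p was 0.0554, while DESeq2 called it (adjusted p = 1.45e-08). In edgeR it passed without WT mouse 3 (adjusted p = 0.0428), without *Fmo5*-/- mouse 2 (0.0476) and without a filter on low counts (0.0156). *Hsp90b1* encodes GRP94, the HSP90 of the ER. Its counts were 40803, 54023 and 38368 in WT and 26909, 31817 and 28452 in *Fmo5*-/- mice, with a log2 fold change of -0.61 (edgeR adjusted p = 0.0637, DESeq2 adjusted p = 0.000758, and edgeR adjusted p = 2.66e-07 without a filter on low counts). *Dnajc3*, which encodes the co-chaperone P58IPK, was 14229, 16762 and 12485 in WT and 9730, 10269 and 9813 in *Fmo5*-/- mice, with a log2 fold change of -0.54 (edgeR adjusted p = 0.0552, DESeq2 adjusted p = 0.000531). It passed in edgeR without WT mouse 3 (adjusted p = 0.0400), with counts of 1 strand (0.0499) and without a filter on low counts (5.33e-06). All 3 genes separated the genotypes.

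The other chaperones differed less or varied more. *Sdf2l1*, a stress-inducible partner of ERdj3, ran from 2729 to 3708 in WT and from 1416 to 2731 in *Fmo5*-/- mice, so the groups met at their edges; DESeq2 called it (adjusted p = 0.0231) and edgeR did not (adjusted p = 0.195). *Dnajb9*, which encodes ERdj4, a co-chaperone that represses IRE1, had a log2 fold change of -0.36 (edgeR adjusted p = 0.118) without overlap. *Sdf2*, the constitutive relative of *Sdf2l1*, was at -0.13, and *Dnajc10*, which encodes the reductase ERdj5, at -0.05 with overlap. The log2 ratio of *Sdf2l1* to *Sdf2* was 0.81 ± 0.28 in WT and 0.26 ± 0.42 in *Fmo5*-/- mice (SD, n = 3, exact permutation p = 0.2, two-sided). The difference of the mean ratios was -0.55, and -0.35 without *Fmo5*-/- mouse 1. For the 5 ratios between relatives that were compared, 3 mice against 3 cannot give an exact p below 0.1, and the adjusted values were 0.167 or 0.2.

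**Figure D2:**
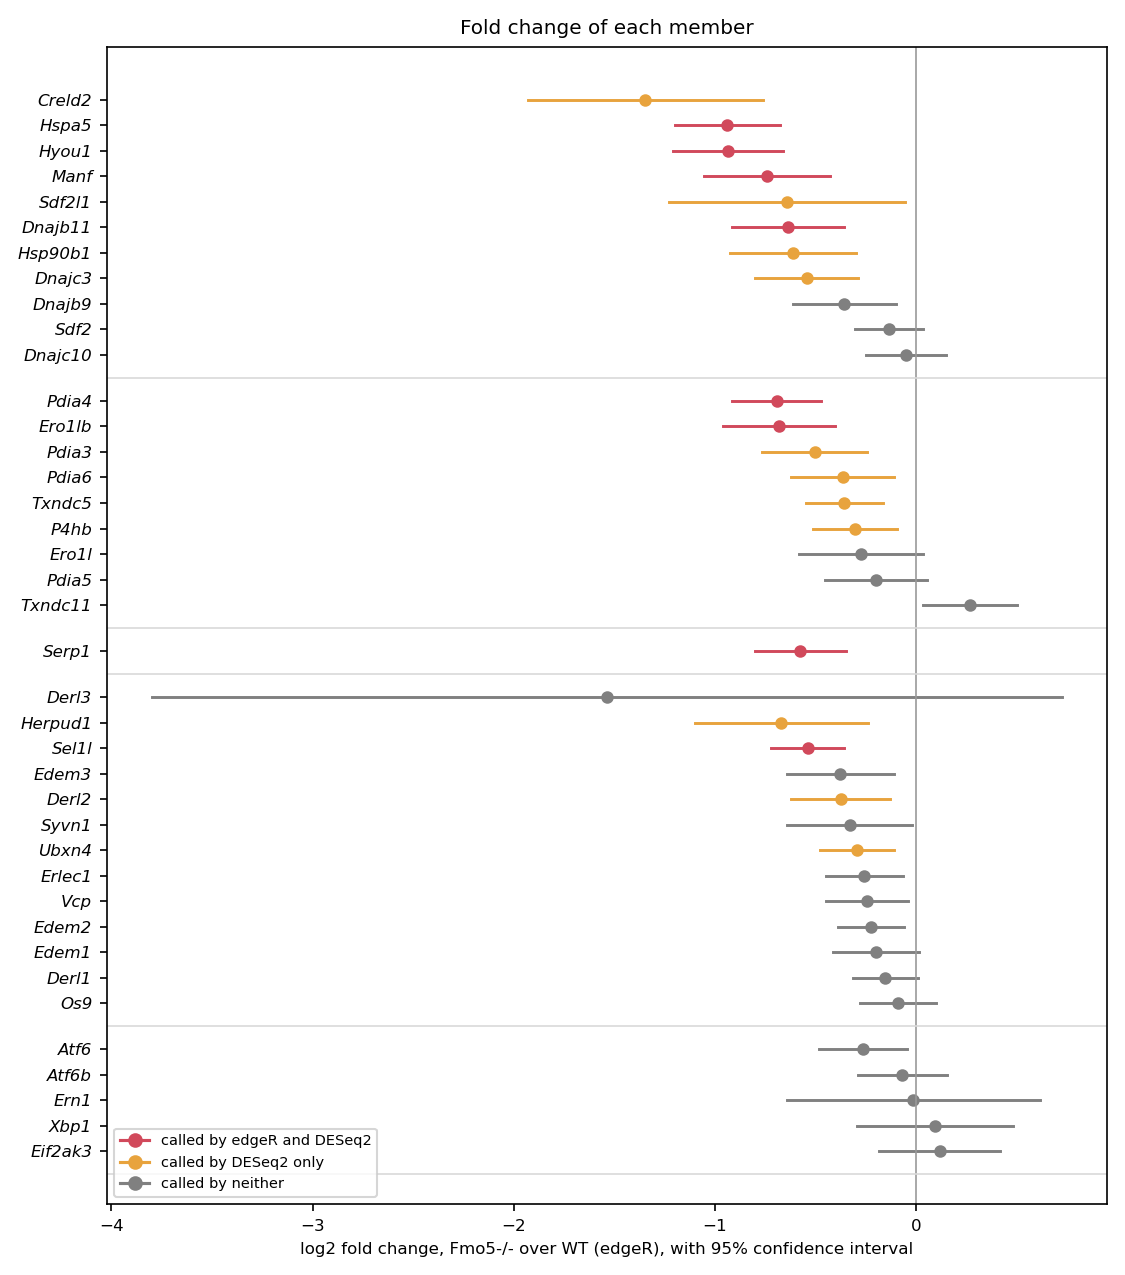
The log2 fold change of each of the 39 genes, *Fmo5*-/- over WT, from edgeR with its 95% confidence interval; red marks the 8 genes called by both tools, orange the 11 called by DESeq2 and not by edgeR with its filter on low counts, and grey those called by neither. Intervals of the called chaperones lie left of 0, while the interval of *Derl3* runs from -3.80 to 0.72.

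Among the disulfide enzymes 8 of 9 had a lower mean and 7 did not overlap. Called were 2 by edgeR and 6 by DESeq2, and the median log2 fold change was -0.36. In the same order, the shares over all genes with a mean of 500 or more were 64.0%, 21.9%, 1.06% and 6.77%. *Pdia4* encodes ERp72 (chr6:47796141-47813430). Its counts were 14180, 14659 and 14113 in WT and 8656, 9918 and 7991 in *Fmo5*-/- mice. WT mice differed by little from each other and every *Fmo5*-/- mouse was far below them, with a log2 fold change of -0.69 (SE 0.10, edgeR adjusted p = 0.0181). It was called in 4 of the 6 fits with a mouse left out. *Ero1lb* encodes the beta form of ER oxidoreductin, which reoxidises the isomerases (chr13:12565874-12611396). Its counts were 3445, 3238 and 2569 in WT and 2034, 1691 and 2046 in *Fmo5*-/- mice, with a log2 fold change of -0.68 (edgeR adjusted p = 0.0430). It kept its call in 2 of the 6 fits, those without WT mouse 3 or *Fmo5*-/- mouse 3.

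The alpha form, *Ero1l*, was less abundant in liver. Its counts were 537, 532 and 515 in WT and 495, 349 and 468 in *Fmo5*-/- mice, with a log2 fold change of -0.27 (edgeR adjusted p = 0.284), or -0.13 without *Fmo5*-/- mouse 2. The log2 ratio of *Ero1lb* to *Ero1l* was 2.53 ± 0.19 in WT and 2.15 ± 0.12 in *Fmo5*-/- mice (SD, n = 3) and did not overlap, with the smallest exact permutation p the design allows, 0.1.

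*P4hb* encodes PDI itself, which also serves as a subunit of the microsomal triglyceride transfer protein and of collagen prolyl hydroxylase. It was the most abundant of the 39 mRNAs per length, at 508.5 CPM (counts scaled to the effective library size) per kb of exon in WT and 412.2 in *Fmo5*-/- liver. Its normalized counts were 69338, 75615 and 68017 in WT and 55113, 60515 and 57018 in *Fmo5*-/- mice, a log2 fold change of -0.30 (edgeR adjusted p = 0.109, DESeq2 adjusted p = 0.0168). *Pdia3*, *Pdia6* and *Txndc5*, which encode ERp57, P5 and ERp46, were likewise called by DESeq2, with log2 fold changes of -0.50, -0.36 and -0.36 and no overlap. In edgeR these 4 genes passed without a filter on low counts, at adjusted p from 4.31e-05 for *Pdia3* to 0.0447 for *P4hb*. *Pdia5* overlapped, at -0.20, and was between -0.29 and -0.13 with a mouse left out. *Txndc11*, which encodes a thioredoxin-domain protein of the ER membrane, went the other way at 1033, 1253 and 1155 in WT and 1454, 1226 and 1464 in *Fmo5*-/- mice, with a log2 fold change of 0.27 (edgeR adjusted p = 0.176) and overlap.

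*Serp1* encodes a small translocon-associated protein that stabilises new membrane proteins during ER stress (chr3:58519817-58525892). Its counts were 15499, 17562 and 14058 in WT and 10821, 10172 and 10637 in *Fmo5*-/- mice. The *Fmo5*-/- values were tightly grouped below all WT values, with a log2 fold change of -0.57 (SE 0.10, edgeR adjusted p = 0.0378). It was called in 2 of the 6 fits with a mouse left out, those without WT mouse 3 or *Fmo5*-/- mouse 3. No other of the 39 genes lies on chromosome 3, the chromosome of *Fmo5*, which is 39.1 Mb away, and an effect of sequence linked to the disrupted gene cannot be told apart from the genotype.

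All 13 ERAD genes had a lower mean in *Fmo5*-/- liver, though *Os9* had the higher mean with library totals. Of all genes with a mean of 500 or more, 64.0% had a lower mean. Among the ERAD genes 1 was called by edgeR and 4 by DESeq2, against 1.06% and 6.77% of all genes at that level. Their median log2 fold change was -0.29. The called gene, *Sel1l*, encodes the scaffold that holds the ubiquitin ligase HRD1 in the retrotranslocation complex (chr12:91806043-91849157). Its counts were 8179, 7997 and 7354 in WT and 5535, 5321 and 5337 in *Fmo5*-/- mice. The groups were far apart relative to their spread, with a log2 fold change of -0.54 (SE 0.08, edgeR adjusted p = 0.0223). The call held in 2 of the 6 fits, those without WT mouse 3 or *Fmo5*-/- mouse 3. *Syvn1*, which encodes HRD1, overlapped at 4191, 5546 and 3864 in WT against 3310, 3585 and 3925 in *Fmo5*-/- mice (edgeR adjusted p = 0.203). Its log2 fold change was -0.33, and -0.16 without WT mouse 2.

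*Herpud1* encodes HERP, a stress-inducible membrane protein that joins the HRD1 complex. Its counts were 11553, 17746 and 11483 in WT and 8393, 7410 and 9823 in *Fmo5*-/- mice. WT mouse 2 stood far above the other two, and the log2 fold change of -0.67 had an edgeR adjusted p of 0.0975 and a DESeq2 adjusted p of 0.00435. Without WT mouse 2 it was -0.43. *Derl2*, a derlin of the retrotranslocation channel, and *Ubxn4*, which recruits the ATPase p97 to the ER membrane, were called by DESeq2, at log2 fold changes of -0.37 and -0.29. In edgeR both passed without a filter on low counts (adjusted p = 0.00463 and 0.0459), and *Derl2* also without *Fmo5*-/- mouse 3 (adjusted p = 0.0465). *Derl1* showed a small difference in very even groups, with 5709, 5670 and 5670 in WT and 5165, 5050 and 5130 in *Fmo5*-/- mice (log2 fold change -0.15, edgeR adjusted p = 0.257). *Derl3*, the stress-inducible derlin, was scarce and erratic at 240, 730 and 149 in WT and 41.9, 228 and 115 in *Fmo5*-/- mice. Its log2 fold change of -1.54 had an SE of 0.87 and was -0.60 without WT mouse 2, and the groups overlapped.

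The mannosidase-like proteins EDEM1, EDEM2 and EDEM3 mark glycoproteins for degradation. *Edem1* was at a log2 fold change of -0.20 with overlap, *Edem2* at -0.22 and *Edem3* at -0.38, the last pair without overlap, and neither tool called any of them, though *Edem3* passed in edgeR without a filter on low counts (adjusted p = 0.00418). The log2 ratio of *Edem1* to *Edem3* was 2.09 ± 0.08 in WT and 2.27 ± 0.08 in *Fmo5*-/- mice (SD, n = 3, exact permutation p = 0.1), higher without overlap. That of *Derl2* to *Derl1* was 0.45 ± 0.09 and 0.22 ± 0.18, with overlap (exact permutation p = 0.2), a difference of -0.23 that was -0.15 without *Fmo5*-/- mouse 2. The lectins that receive the trimmed glycoproteins are encoded by *Os9* and *Erlec1*. *Os9* was among the most abundant ERAD mRNAs, at 118.6 CPM per kb in WT, and differed little, with a log2 fold change of -0.09 (95% confidence interval -0.28 to 0.10) and of 0.017 with library totals. *Erlec1* was at -0.26 and *Vcp*, which encodes p97, at -0.24, both without overlap and called by neither tool.

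The 5 sensors and transcription factors did not separate the genotypes. Neither tool called any of them, and their log2 fold changes ran from -0.26 to 0.12 with a median of -0.01. *Xbp1* counts were 8741, 12610 and 10189 in WT and 9871, 10048 and 13792 in *Fmo5*-/- mice, a log2 fold change of 0.10 (95% confidence interval -0.29 to 0.48). Gene counts sum the spliced and unspliced forms of *Xbp1*, so the activity of IRE1 cannot be read from them. *Ern1*, which encodes IRE1 alpha, was 3862, 6570 and 3309 in WT and 4292, 4095 and 5229 in *Fmo5*-/- mice, with a log2 fold change of -0.01 and an interval from -0.64 to 0.62. That interval is too wide to set the direction of any difference in *Ern1*.

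*Atf6* encodes the membrane precursor of the ATF6 alpha factor. Its counts were 3550, 3607 and 3084 in WT and 3129, 2621 and 2778 in *Fmo5*-/- mice, the lowest WT mouse falling below the highest *Fmo5*-/- mouse (log2 fold change -0.26, edgeR adjusted p = 0.161). *Atf6b*, its relative, was at -0.07 with overlap. The log2 ratio of *Atf6* to *Atf6b* was 1.29 ± 0.12 in WT and 1.09 ± 0.06 in *Fmo5*-/- mice (SD, n = 3, exact permutation p = 0.1) and did not overlap. *Eif2ak3*, which encodes PERK, was among the least abundant of the 39 mRNAs at 2.02 CPM per kb in WT and 2.20 in *Fmo5*-/- liver, with overlap.

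Summed over the 39 genes, the level was 8829 ± 848 CPM in WT and 6353 ± 245 CPM in *Fmo5*-/- liver (SD, n = 3), a difference in means of -28.0% (-22.3% with library totals). The sum of the chaperones was 3167 ± 421 CPM in WT and 1881 ± 144 CPM in *Fmo5*-/- liver. The disulfide enzymes summed to 3208 ± 190 and 2460 ± 162 CPM, the ERAD genes to 1712 ± 154 and 1374 ± 61.5 CPM, and the sensors to 420.2 ± 78.0 and 422.2 ± 57.7 CPM. Only the sums of the sensors overlapped between genotypes. *Hspa5* took 14.0% of the summed level in WT and 10.2% in *Fmo5*-/- liver.

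**Figure D3:**
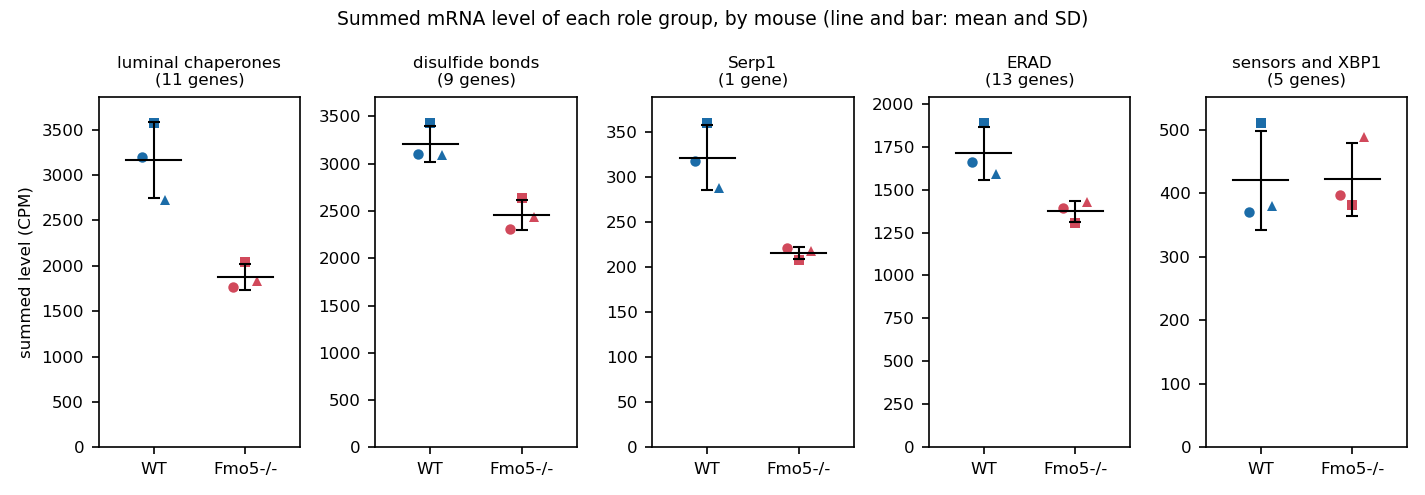
Summed level in CPM of the genes of each role group in each mouse, from 0, with the mean as a line and the SD as a bar; blue is WT and red *Fmo5*-/-. The chaperone sums run from 2730 to 3570 CPM in WT and from 1766 to 2042 CPM in *Fmo5*-/- mice, whereas the sums of the sensors overlap.

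Per kb of exon, *P4hb* was followed in WT liver by *Hspa5* at 292.6, *Hsp90b1* at 225.7 and *Pdia3* at 187.5 CPM per kb. In *Fmo5*-/- liver these were 152.8, 147.7 and 132.2 CPM per kb, in the same order. *Hspa5* thus went from 57.5% to 37.1% of the level of *P4hb*. Across the 39 genes the log2 fold change and the WT level per kb had a Spearman rho of -0.40 and, with the level on a log2 scale, a Pearson r of -0.28. These values describe genes measured in the same libraries, which are not independent, and precision also rises with the level.

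**Figure D4:**
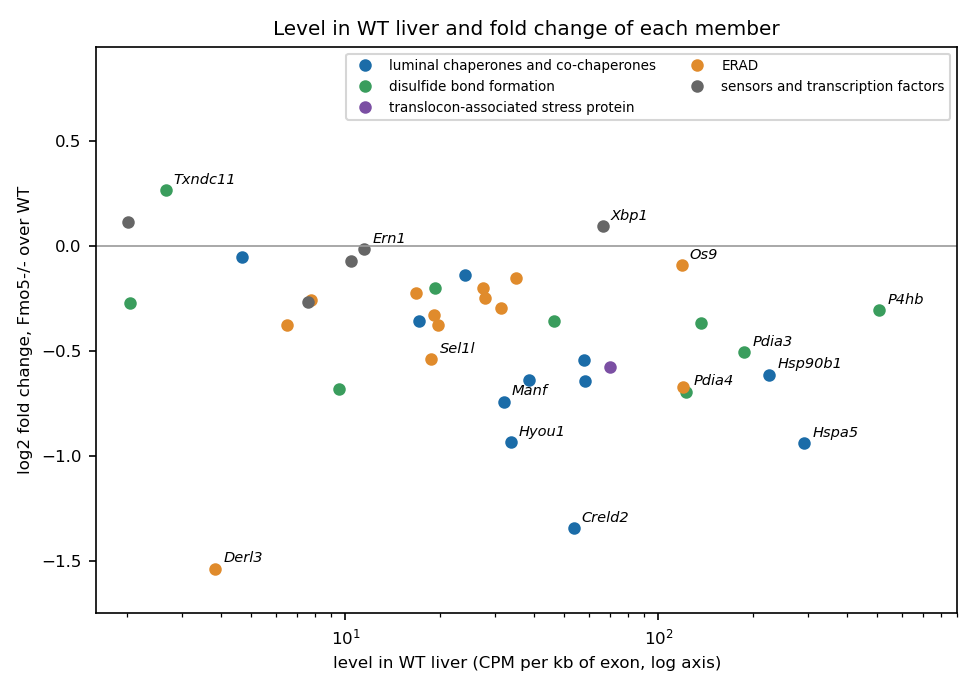
Level in WT liver in CPM per kb of exon, on a log axis, against the log2 fold change of each of the 39 genes, coloured by role. *Hspa5* and *Hsp90b1* lie at high level and well below 0, *P4hb* and *Os9* at high level nearer 0, and *Derl3* at low level furthest below 0.

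The median difference was larger among genes with an ERSE or ERSE-II in the RefSeq promoter. All 10 were lower in mean, with a median log2 fold change of -0.65, 8 of them without overlap and 8 called by DESeq2, of which edgeR called 3 (*Hspa5*, *Dnajb11* and *Ero1lb*). The 21 genes with none of the motifs had a median of -0.27, with 3 called by edgeR, 8 by DESeq2 and 13 without overlap. Over all genes with a mean of 500 or more, 64.0% were lower in mean and 21.9% lower without overlap. The shares called lower were 1.06% by edgeR and 6.77% by DESeq2. The ranges of the classes overlapped, since *Pdia4* at -0.69 had no motif while *Syvn1*, at -0.33 and at -0.16 without WT mouse 2, had an ERSE. The 3 genes with a UPRE alone had a median of -0.24. The 5 genes without an entry, for which the elements were not looked for, stood outside these classes and held 2 of the 8 edgeR calls, *Hyou1* at -0.93 and *Manf* at -0.74. No test was made between the classes.

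**Figure D5:**
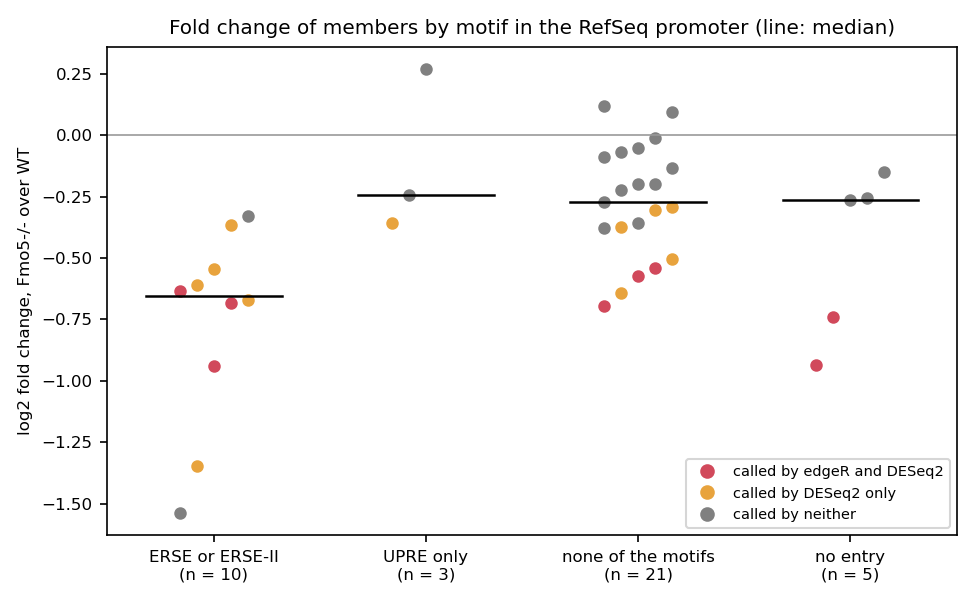
The log2 fold change of each gene, *Fmo5*-/- over WT, by the element found in its RefSeq promoter, with the median of the class as a line and colours for the calls by edgeR and DESeq2. All 10 genes with an ERSE or ERSE-II lie below 0, at a median of -0.65, compared with -0.27 for the 21 genes with no motif.

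Mice of a genotype also differed from one another. Among the WT mice, mouse 2 had the highest value for 28 of the 39 genes and mouse 3 the lowest for 28, compared with 39.6% and 42.8% of genes with a mean of 500 or more. Among *Fmo5*-/- mice, mouse 1 was lowest for 17, mouse 2 for 19 and mouse 3 for 3 of the 39, compared with 27.3%, 48.4% and 24.2% of genes with a mean of 500 or more. The share of mouse 2 was thus close to that over all genes. *Fmo5*-/- mouse 1 held the lowest value of *Hspa5*, *Hyou1*, *Dnajb11*, *Manf*, *Creld2* and *Hsp90b1*, and mouse 2 that of *Ero1lb*, *Serp1*, *Sel1l* and *Herpud1*. The median coefficient of variation of the 39 genes was 9.64% in WT and 9.16% in *Fmo5*-/- mice, above the 7.42% and 7.34% of all genes with a mean of 500 or more.

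Other genes of the pathway were examined in 5 lists, to be read against the shares of all genes with a mean of 500 or more, which were 17.6% lower and 7.62% higher in edgeR without adjustment, and 6.77% and 2.77% called by DESeq2. Of 31 calnexin cycle and other folding factors, 0 were called in either direction by edgeR (unadjusted p under 0.05 for 8 lower and 0 higher) and 5 were called lower by DESeq2, with a median log2 fold change of -0.15; 27 of the 31 had a mean of 500 or more. *Canx*, the lectin chaperone calnexin, was 21052, 21940 and 19393 in WT and 16507, 16645 and 16120 in *Fmo5*-/- mice (log2 fold change -0.34, edgeR adjusted p = 0.0763, DESeq2 adjusted p = 0.00502). *Hspa13*, an HSP70-like protein of the ER, was at -0.63 (edgeR adjusted p = 0.0710) without overlap. Of 24 other ERAD factors, 0 were called by edgeR (7 lower and 0 higher without adjustment) and 2 lower by DESeq2, with a median of -0.15 and 23 at a mean of 500 or more. The 2 called by DESeq2 were close to the share over all genes. *Rad23b*, which hands ubiquitinated proteins to the proteasome, was at -0.35 and *Rnf5*, an ER ubiquitin ligase, at -0.26.

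Of 23 other UPR regulators, 0 were called by edgeR (3 lower and 4 higher without adjustment), while DESeq2 called 2 lower and 1 higher and 19 had a mean of 500 or more. *Tram1*, a translocon component, was at -0.43 (edgeR adjusted p = 0.0515), and *Creb3l2*, a transcription factor activated by cleavage like ATF6, was at 0.48 (edgeR adjusted p = 0.0802). The 22 genes of the PERK and ATF4 branch had a median of 0.08, with 9 lower and 13 higher means and 0 called by either tool (4 lower and 1 higher in edgeR without adjustment). Only 8 of these 22 genes reached the mean of 500 that a call required. The unadjusted counts in the lists took in genes below that mean, unlike the shares over all genes. In that branch *Fgf21*, a fasting hormone and ATF4 target, was 157, 102 and 107 in WT and 42.9, 14.7 and 41.2 in *Fmo5*-/- mice. Its log2 fold change was -1.89 (edgeR adjusted p = 0.0494, DESeq2 adjusted p = 1.79e-05), but its mean was below 500, so it was not called. *Asns*, which encodes asparagine synthetase, was at -0.93 (edgeR adjusted p = 0.0687, DESeq2 adjusted p = 0.00338), also below a mean of 500.

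The mRNAs known as substrates of IRE1-dependent decay held the only edgeR call in these lists. Of 13 genes, *Cyp1a2*, a cytochrome P450 of drug metabolism, was called higher, at 29744, 32486 and 29896 in WT and 46672, 52511 and 45632 in *Fmo5*-/- mice (log2 fold change 0.65, edgeR adjusted p = 0.0208). The call was lost without WT mouse 1 and without *Fmo5*-/- mouse 1. Over the 13 genes the median was 0.05, with 5 lower and 8 higher means, and DESeq2 called 1 lower and 1 higher.

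Of the 10 lists of cell markers, the sums of 3 separated the genotypes, those of Kupffer cells and macrophages, of T and NK cells and of neutrophils. The 11 markers of Kupffer cells and macrophages were all higher in mean in *Fmo5*-/- liver, their sum being 276 to 325 CPM in WT and 429 to 784 CPM in *Fmo5*-/- mice. Of the 9 with a mean of 500 or more, 8 did not overlap. Among these 9 edgeR called 1 higher, *Clec4f* (log2 fold change 0.70, adjusted p = 0.0275), and DESeq2 called 8, all but *Adgre1*, whereas 0.550% and 2.77% of all genes at this level were called higher. The log2 fold changes of the 9 ran from 0.70 to 2.24. The 8 markers of T and NK cells summed to 4.23 to 5.82 CPM in WT and 8.05 to 25.9 CPM in *Fmo5*-/- mice. The 6 neutrophil markers summed to 2.89 to 5.04 and 6.04 to 12.0 CPM, with *Ly6g* at 0 in 5 libraries and 1 count in the other. The sums of hepatocyte markers, 100587 to 134147 CPM in WT and 104132 to 130622 CPM in *Fmo5*-/- mice, overlapped, as did those of endothelial, stellate, cholangiocyte, plasma cell and B cell, pancreatic acinar and erythroid markers. The acinar markers *Prss1*, *Cela3b*, *Cpa1*, *Amy2a5*, *Cel* and *Clps* were at 0 in every library. With library totals the acinar sum did not overlap, at 26.6 to 33.1 in WT and 34.0 to 46.2 in *Fmo5*-/- mice. Nearly all of the acinar sum was 1 gene, *Cela1*. Scaled to effective library sizes, it held 27.5 of 27.8 CPM in WT mouse 1 and 44.4 of 44.8 CPM in *Fmo5*-/- mouse 3. The part of the immune cell markers in the differences of the ER genes was not tested.

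Exons of 25 of the 39 genes share no base with another gene model. For *Sdf2*, *Hsp90b1*, *Txndc5*, *Manf*, *Eif2ak3* and *Vcp* the shared part is 16.0%, 15.7%, 11.9%, 9.25%, 8.05% and 7.26% of exon bases. Reads in such bases were not assigned to a gene in the unstranded counts, so that the levels per kb of these 6 genes may be understated. Another gene model, *Vcp-rs*, is named as a relative of *Vcp*. The sequences of the pair were not compared, and the counts of *Vcp* are uncertain to that extent.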

How the data were processed

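The mRNA of 6 livers was sequenced as single reads on a NextSeq 500. The authors mapped reads to mm10 with STAR and deposited its raw counts per gene, in which the 2 strands are equally represented. Their series table holds a signal per gene and library, which the authors made by dividing the counts by 1 DESeq2 factor per library. Its columns of fold changes and p-values were not used. FastQC and bcl2fastq are named in the submitters' processing notes.

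From the deposited counts, 16734 genes passed edgeR's expression filter (minimum count 10) and were tested with the robust quasi-likelihood test of edgeR 4.0.16 (TMM factors, R 4.3.3), with Benjamini-Hochberg adjustment over all of them. Calls required a mean of 500 normalized counts, the level used in the study, and an adjusted p under 0.05. DESeq2 1.42.0 was an alternative. Printed normalized counts and CPM were recomputed from the raw counts with edgeR's effective library sizes (totals of the tested genes times TMM factors, up to 8.28% from the library totals), the former rescaled to the mean of those sizes. CPM per kb were divided by exon length (GENCODE M21, GRCm38). Scripts were tested on simulated data. The labels number the animals separately, and the numbers of WT and *Fmo5*-/- mice lie in separate ranges. What the ranges stand for is not given, and it cannot be told apart from genotype. The study's methods state that mice were kept in adjacent cages, and animals of a genotype may share cages or litters. Replicates differed far beyond sampling noise.

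The 39 genes, the further pathway lists and the cell markers were chosen with earlier results of these data known. Named were all 39 genes, *Fmo5*, and of each further list the genes called or the 2 with the smallest p, together with markers whose sum did not overlap. Of 54446 identifiers, 53229 matched the annotation with their version and 1180 without it. A planned check of C-terminal retrieval signals was not run. Alternatives were other scalings, other filters, counts of 1 strand and leaving out each mouse. Scaling to library totals was added after the data had been seen.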

Additional observations from a re-analysis of the deposited data

How the results depend on the processing

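The number of the 39 genes called lower was 8 in the edgeR analysis, 8 with RLE factors and 8 with scaling that left out the 20 most abundant genes. It was 19 with DESeq2, 21 without a filter on low counts, 4 where a mean of 500 was required before the fit and 9 with counts of 1 strand. The 4 were *Hspa5*, *Hyou1*, *Pdia4* and *Sel1l*. In that fit *Serp1*, *Ero1lb*, *Dnajb11* and *Manf* lost their calls, at edgeR adjusted p from 0.0601 to 0.0727. Over all genes with a mean of 500 or more the same settings gave 83 called lower, then 89 and 82, and 528, 704, 23 and 78. With library totals in place of effective library sizes, chosen after the data had been seen, 6 of the 39 were called lower, 15 in place of 27 did not overlap, and their median log2 fold change was -0.24. Leaving out 1 mouse gave 0 to 8 (7 to 107 over all genes), the 0 being without *Fmo5*-/- mouse 1. In that fit 25 of the genes with a mean of 500 or more were lower at an unadjusted p under 0.05, 23 of them also with all 6 mice, against 18.2% of all genes at this level. None was called higher under any of these settings. Of the other genes of the pathway 0 were called lower, against 10 with DESeq2 and 10 without a filter, and 0 to 2 with a mouse left out. Called higher were 1, 2 with DESeq2 and 2 without a filter, and 0 to 2 with a mouse left out. The cause of these shifts was not tested.

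The median log2 fold change of -0.36 lay between -0.38 and -0.28 with a mouse left out, the smallest difference being without WT mouse 2. The direction was reversed only for genes near 0. *Dnajc10* was at 0.013 and *Ern1* at 0.054 where a mean of 500 was required first, and *Ern1* was at 0.012 with counts of 1 strand. With library totals *Dnajc10* was at 0.056, *Os9* at 0.017, *Atf6b* at 0.039 and *Ern1* at 0.092. With a mouse left out, *Ern1* ran from -0.19 to 0.34, *Xbp1* from -0.081 to 0.25 and *Atf6b* from -0.12 to 0.032. *Ern1* was at 0.34 without WT mouse 2, 0.024 without *Fmo5*-/- mouse 1 and 0.056 without *Fmo5*-/- mouse 2. *Xbp1* was at -0.013 without WT mouse 1 and -0.081 without *Fmo5*-/- mouse 3, and *Atf6b* at 0.032 without WT mouse 2. In the fits with a mouse left out, 3 other genes near 0 kept their direction but moved. *Dnajc10* ran from -0.12 to -0.0018, *Os9* from -0.12 to -0.049 and *Eif2ak3* from 0.028 to 0.24. No paired analysis was possible because the labels give no replicate number shared between the genotypes. The gene with the fewest counts was *Derl3*, at a mean of 251 normalized counts, and the effect of depth was not tested.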
